A study of Homo sapiens with 15 samples.

Results

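The genes described here carry a cell through G2 and mitosis: cyclins and the kinases they activate, checkpoint and kinetochore proteins, spindle motors and the machinery of cytokinesis. They were chosen by symbol as 49 mitotic kinases, cyclins, kinesins, centromere, checkpoint and APC/C genes, and all 49 were found among the 62754 gene IDs of the count table. All 49 also passed the filter on low counts, so none dropped out of the tests. RNA had been sequenced from NCI-H69, an established line of classic small cell lung cancer, a neuroendocrine tumour of the lung. The groups were cells given CS2, cells given FB23-2 and control cells given the solvent DMSO, with 3 libraries each that the series calls biological replicates. The series names CS2 (also known as brequinar, an inhibitor of the pyrimidine synthesis enzyme DHODH) and FB23-2 as inhibitors of FTO, which removes the m6A methyl mark from RNA. The labels give neither doses nor treatment times, and whether the compounds were used at matched ones cannot be told. All groups were the same line, and the libraries of the line H82 were not analysed here.

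As background, transcripts of this group are made in a wave late in the cell cycle. In quiescent and early-cycle cells the DREAM complex holds their promoters silent through a short element named CHR. The MuvB core of that complex later joins B-MYB and then FOXM1 to switch the same promoters on, and the factor NF-Y binds CCAAT boxes beside them. The encoded proteins peak as cyclin B with CDK1 starts mitosis, and the APC/C ubiquitin ligase destroys many of them at mitotic exit.

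The promoters are shown because that wave is set there and because the members moved in different directions. RefSeq windows (assembly GRCh38.p14, from 250 bases before to 50 after the transcription start) were found for 42 of the 49 members. The CHR was searched as TTTGAA or TTCGAA and the NF-Y site as CCAAT, each on both strands. A CHR match lay in 33 of the 42 members, or 78.6%, against 19.5% of the 27305 genes with a window and 15.9% of the 12577 of them tested here. CCAAT lay in 35 members, or 83.3%, against 39.7% of all genes with a window. Both were in 29 members, or 69%, against 9.02%. Below are the windows of PLK1 and CCNB1, which had the largest falls, and of CDK1 (the first of its 2 windows) and TOP2A, which were higher with CS2. Capitals mark CCAAT and CHR matches, which read ATTGG and TTCAAA where they lie on the opposite strand.
PLK1, chr16:23678639-23678938, plus strand: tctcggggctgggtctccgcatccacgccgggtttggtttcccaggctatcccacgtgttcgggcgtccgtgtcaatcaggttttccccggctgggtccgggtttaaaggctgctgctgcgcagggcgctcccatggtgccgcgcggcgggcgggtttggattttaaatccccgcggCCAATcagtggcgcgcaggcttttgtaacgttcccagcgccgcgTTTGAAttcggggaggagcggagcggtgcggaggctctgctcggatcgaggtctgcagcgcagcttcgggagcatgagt
CCNB1, chr5:69166900-69167199, plus strand: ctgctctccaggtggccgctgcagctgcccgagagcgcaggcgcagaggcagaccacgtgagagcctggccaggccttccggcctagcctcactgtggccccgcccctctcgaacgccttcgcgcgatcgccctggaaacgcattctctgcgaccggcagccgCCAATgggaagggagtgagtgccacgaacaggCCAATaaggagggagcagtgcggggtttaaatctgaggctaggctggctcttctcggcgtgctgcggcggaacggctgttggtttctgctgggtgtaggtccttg
CDK1, chr10:60778081-60778380, plus strand: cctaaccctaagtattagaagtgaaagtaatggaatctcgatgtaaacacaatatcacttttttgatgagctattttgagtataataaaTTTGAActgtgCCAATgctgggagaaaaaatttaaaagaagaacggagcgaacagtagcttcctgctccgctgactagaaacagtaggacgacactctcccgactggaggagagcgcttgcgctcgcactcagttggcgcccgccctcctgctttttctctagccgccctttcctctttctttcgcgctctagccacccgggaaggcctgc
TOP2A, chr17:40417847-40418146, minus strand: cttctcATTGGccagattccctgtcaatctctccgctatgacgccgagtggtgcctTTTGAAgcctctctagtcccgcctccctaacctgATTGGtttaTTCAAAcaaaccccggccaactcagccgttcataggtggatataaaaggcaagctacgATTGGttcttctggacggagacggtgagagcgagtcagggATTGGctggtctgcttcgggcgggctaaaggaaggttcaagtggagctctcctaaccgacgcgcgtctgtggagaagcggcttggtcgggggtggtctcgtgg

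In PLK1 the CCAAT match began 73 bases and the CHR match 29 bases upstream of the start. CCNB1 had a CCAAT match 87 and another 55 bases upstream and no CHR match in these letters. The CDK1 window shown held a CHR match 161 and a CCAAT match 150 bases upstream. Its other window, not shown, held 3 CHR and 2 CCAAT matches. TOP2A had CHR matches 194 and 151 bases upstream and 4 CCAAT matches.

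Libraries held 29916267 to 33663742 counts with CS2, 32352835 to 43957839 with FB23-2 and 31404658 to 45022633 with DMSO, and 19781 genes were tested. A count of 3 was worth 0.0666 to 0.101 CPM (counts scaled to library size with TMM factors). FB23-2 replicate 2 stood apart: 11.0% of its counts were mitochondrial, against 6.83% and 6.91% in the other FB23-2 libraries, 7.30% to 9.05% with CS2 and 5.18% to 5.69% with DMSO. The 7 neuroendocrine markers summed to 2167 to 2292 CPM with CS2, 2277 to 2321 with FB23-2 and 2641 to 2831 with DMSO. Markers of squamous and airway epithelium (5 genes) stayed at or under 3.16 CPM in sum, and of blood and endothelium (5 genes, CD3E at 0) at or under 1.76 CPM. The 5 fibroblast markers summed to 33.1 to 40.2 CPM with CS2, at most 15.9 with FB23-2 and 52.6 to 54.6 with DMSO, with COL3A1 and DCN at 0 in every library. The part of these shifts in the results below was not tested.

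With FB23-2, 32 mitotic transcripts were lower and 17 were not called. PLK1, CCNB1, KIF20A, AURKA and KIF4A led, each at less than 50% of its DMSO level. The 32 are 65.3% of the 49 members, where 26.7% of all tested genes were lower at an adjusted p under 0.05 in edgeR's quasi-likelihood test. None was higher, where 25.4% of all genes were; DESeq2 also called 0 higher, and 0 were higher at an unadjusted p under 0.05. The members' median log2 fold change was -0.37 (from -1.67 to 0.12), and 46 of 49 lay below 0, while the median of all genes was -0.001. Libraries of the 2 groups did not overlap for 34 members that were lower, against 30.3% of all genes, and for 1 that was higher (CDK1), against 29.5%. Past 1.5-fold there were 17 of 49 members lower, against 16.2% of all genes. Past 2-fold there were the 5 of 49 named above, a share close to the 9.44% of all genes. Without FB23-2 replicate 2, 36 members were lower and the median was -0.46.

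With CS2 the same genes split. PLK1, CENPE, DLGAP5, ASPM and KIF14 fell, while CDK1, KIF2C, TOP2A and CDC25B rose. Against DMSO, 22 members (44.9%) were lower, where 25.3% of all genes were, and 9 (18.4%) were higher, where 24.3% of all genes were. The share higher was thus below the background. The members' median log2 fold change was -0.13 (from -0.80 to 0.60). Libraries did not overlap for 21 members that were lower, against 30.8% of all genes, and for 11 that were higher, against 29.9%. PLK1, CENPE, KIF14, ASPM and DLGAP5 were lower by more than 1.5-fold, 5 of 49 and a smaller share than the 15.9% of all genes. CDK1 alone, 1 of 49, was higher by more than 1.5-fold, against 13.2%. Past 2-fold 0 members were lower and 0 higher, against 9.57% and 6.32% of all genes. Fewer members were called higher, 5 of 49, without CS2 replicate 2.

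Summed over the 49 members, expression was 9173, 10060 and 9285 CPM in the CS2 libraries, 7248, 8030 and 7403 CPM in the FB23-2 libraries, and 9725, 10471 and 10333 CPM in the DMSO libraries. All 3 FB23-2 sums lay below every other library, while the CS2 and DMSO sums overlapped. These 49 genes took 0.924% to 0.989% of all counts with CS2, 0.751% to 0.762% with FB23-2 and 0.966% to 1.05% with DMSO. In bulk RNA, fewer cells in G2 and mitosis and less RNA of these genes per cell cannot be told apart.

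**Figure D1:**
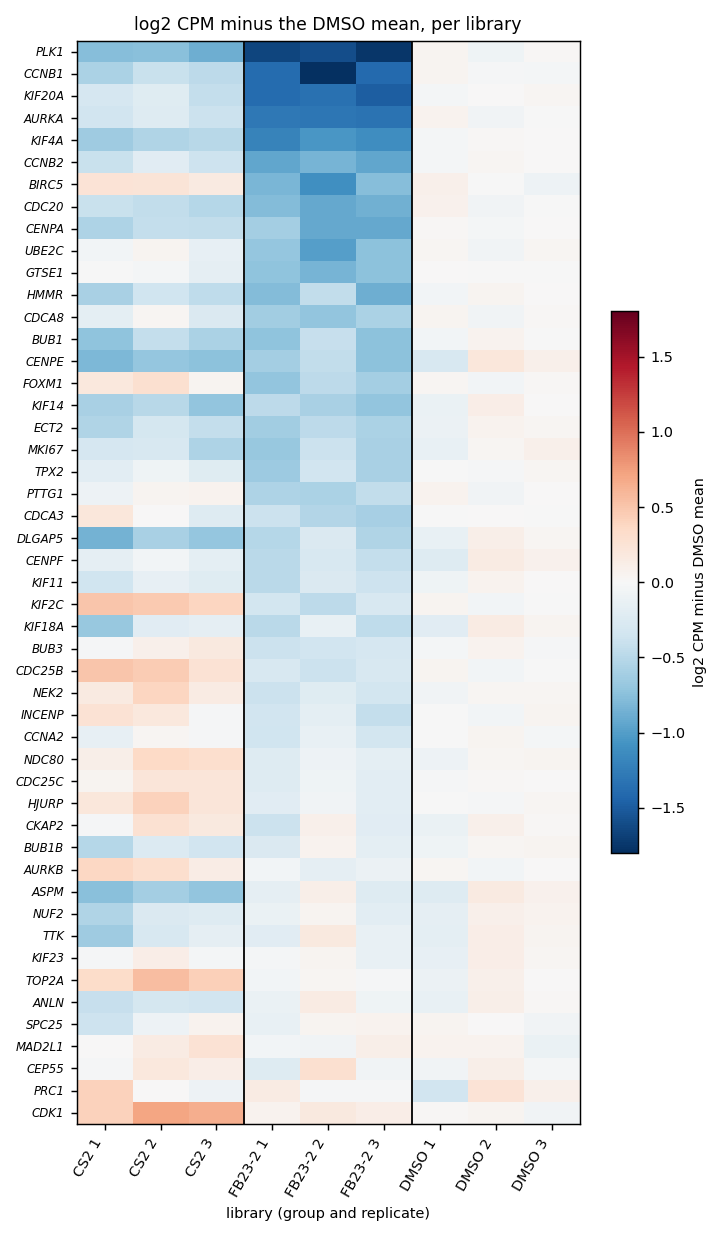
Each row is a member and each column a library of the CS2, FB23-2 or DMSO group; colour gives log2 CPM minus the mean of the 3 DMSO libraries. The FB23-2 columns are mostly blue, from PLK1 down, whereas the CS2 columns mix blue rows such as ASPM and DLGAP5 with red rows such as CDK1, TOP2A and KIF2C.

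Both compounds are set against the same 3 DMSO libraries, so their calls are given side by side and not as independent results. Of the 49 members, 17 were lower with both compounds, where 10.2% of all genes were. Another 4 (BIRC5, CDC25B, KIF2C and NEK2) were higher with CS2 and lower with FB23-2, a pattern of 4.52% of all genes. The CS2 call of BIRC5 was lost under 6 of 15 alternatives and that of NEK2 under 3. None had the opposite pattern, shown by 4.18%, and none was higher with both, as 9.83% were. A further 5 (AURKB, CDK1, HJURP, NDC80 and TOP2A) were higher with CS2 and not called with FB23-2. Called lower with CS2 and not with FB23-2 were 5 (ANLN, ASPM, BUB1B, NUF2 and TTK), and lower with FB23-2 and not with CS2 were 11, among them FOXM1, UBE2C, PTTG1 and TPX2. The shares of all genes called with a single compound only were not computed, so these counts are not read as an excess. The direct test between the compounds, given further on, passed for each gene of these 4 sets as fitted, but not under every alternative for AURKB, BUB1B, NUF2, TTK, CCNA2, CENPF and INCENP. The 7 members called with neither compound were CDC25C, CEP55, CKAP2, KIF23, MAD2L1, PRC1 and SPC25.

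The regulators of mitotic entry held the largest single changes. Of the 10, 4 were lower and 2 higher with CS2, against 25.3% and 24.3% of all genes. With FB23-2, 8 were lower, against 26.7%. Counts of few genes in this and the next groups by role are not read against these shares. PLK1 (ENSG00000166851, chr16:23677656-23690367, plus strand), the polo-like kinase that drives entry, centrosome maturation and exit, was at 121, 122 and 112 CPM with CS2, at 65.6, 67.8 and 61.1 CPM with FB23-2, and at 213, 195 and 209 CPM with DMSO. The 3 groups did not overlap, with FB23-2 lowest. Its log2 fold change was -0.80 ± 0.075 (SE) with CS2 and -1.67 ± 0.077 with FB23-2, a 3.17-fold fall (edgeR adjusted p = 3.96e-08 and 1.7e-12). By the annotation, 12.5% of its exon bases overlap another gene.

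CCNB1 (ENSG00000134057, chr5:69167010-69178245, plus strand) encodes cyclin B1, the partner that activates CDK1. It was at 262, 294 and 280 CPM with CS2, at 149, 111 and 147 CPM with FB23-2, and at 403, 380 and 380 CPM with DMSO. Again the groups were apart, and FB23-2 replicate 2 was the lowest library of all. The log2 fold changes were -0.48 ± 0.092 with CS2 and -1.52 ± 0.094 with FB23-2 (edgeR adjusted p = 0.000245 and 1.12e-10). Its relative CCNB2 was at 156 to 179 CPM with CS2, 107 to 115 with FB23-2 and 201 to 211 with DMSO, with log2 fold changes of -0.32 and -0.91.

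CDK1 (ENSG00000170312, chr10:60778331-60794852, plus strand), the kinase that cyclin B activates, moved the other way. It was at 208, 255 and 246 CPM with CS2, at 164, 177 and 170 CPM with FB23-2, and at 158, 162 and 149 CPM with DMSO. Every CS2 library was above every other library, and the FB23-2 libraries were all above the highest DMSO library by a small margin. The log2 fold change was 0.60 ± 0.08 with CS2 (edgeR adjusted p = 4.54e-06), the largest increase among the members, and 0.12 ± 0.08 with FB23-2, which did not pass (adjusted p = 0.203). So in CS2-treated cells the transcript of the kinase was higher and that of its cyclin lower.

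AURKA (ENSG00000087586, chr20:56369389-56392337, minus strand), the kinase of spindle poles that activates PLK1, was at 56.7, 61.3 and 54.8 CPM with CS2, at 29.5, 29.3 and 28.5 CPM with FB23-2, and at 75.4, 68.9 and 71.5 CPM with DMSO. The groups did not overlap, and the FB23-2 libraries had an SD of only 0.482 CPM. Its log2 fold changes were -0.32 ± 0.082 and -1.31 ± 0.084 (edgeR adjusted p = 0.00283 with CS2 and 1.78e-10 with FB23-2). CDC25B, a phosphatase that removes the inhibitory phosphates of CDK1, was called in opposite directions. It was at 558, 546 and 475 CPM with CS2, at 325, 302 and 324 CPM with FB23-2, and at 408, 384 and 395 CPM with DMSO, which gives log2 fold changes of 0.41 and -0.32 (edgeR adjusted p = 0.000134 and 0.00121). The sister phosphatase CDC25C did not pass with either compound (0.16 and -0.16). Among the rest, CCNA2, CDCA3 and GTSE1 were not called with CS2 (-0.04, 0.00 and -0.06) and were lower with FB23-2 (-0.27, -0.50 and -0.77), the CCNA2 call being lost without FB23-2 replicate 1 or 3.

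FOXM1 (ENSG00000111206, chr12:2857681-2877155, minus strand), the transcription factor of this gene wave, was at 267, 285 and 241 CPM with CS2, at 143, 169 and 154 CPM with FB23-2, and at 239, 226 and 237 CPM with DMSO. The CS2 libraries were all above the DMSO libraries, one of them narrowly, and the FB23-2 libraries were all below. The fall with FB23-2 was -0.59 ± 0.08 on the log2 scale (edgeR adjusted p = 4.72e-06), and the difference with CS2, 0.18 ± 0.08, did not pass (adjusted p = 0.0749). Of its exon bases, 15.9% overlap ITFG2.

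**Figure D2:**
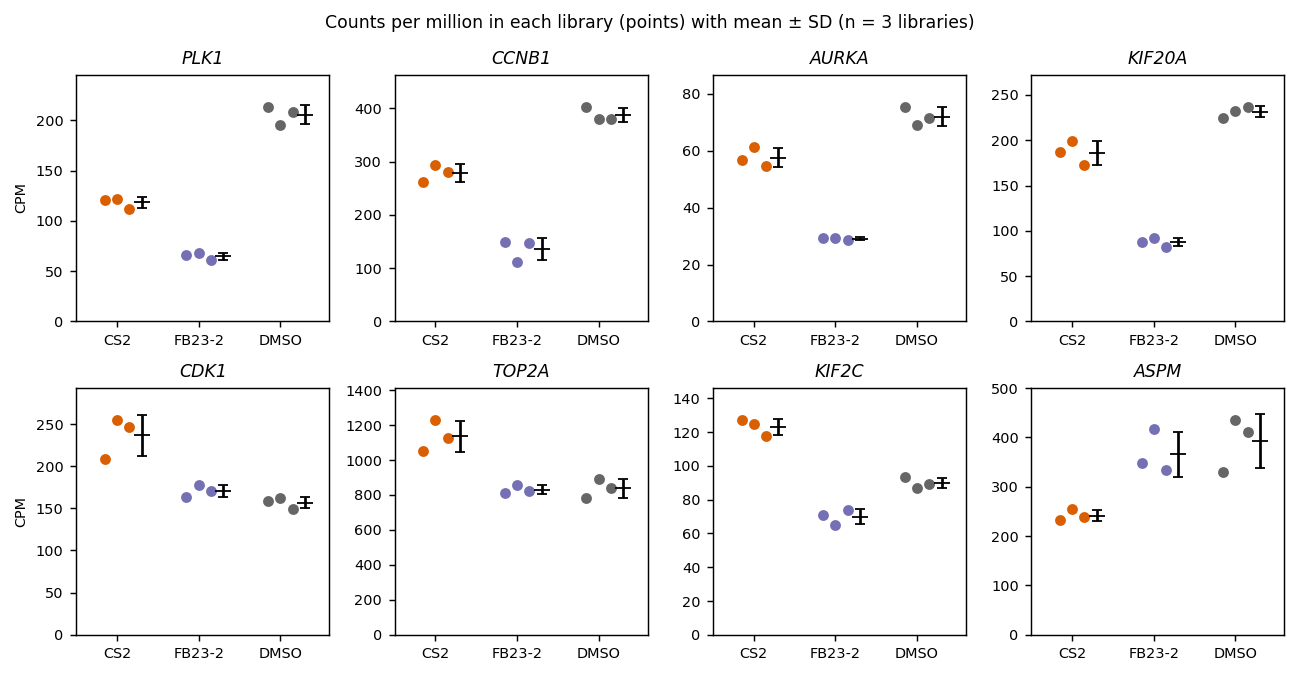
CPM of 8 members in each library (points) with the mean ± SD (n = 3) for CS2, FB23-2 and DMSO, on linear axes from 0. PLK1, CCNB1, AURKA and KIF20A step down to their lowest level with FB23-2, CDK1, TOP2A and KIF2C are highest with CS2, and ASPM is lowest with CS2.

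The spindle checkpoint delays anaphase until every kinetochore is attached. Of its 5 genes, 3 were lower with CS2 and 2 with FB23-2, against 25.3% and 26.7% of all genes. BUB1, a checkpoint kinase, was at 87.6, 108 and 97.5 CPM with CS2, at 87.3, 109 and 86.5 CPM with FB23-2, and at 140, 150 and 144 CPM with DMSO. Both compounds gave nearly the same level, apart from DMSO (log2 fold changes -0.57 and -0.62). BUB1B and TTK were lower with CS2 (-0.37 and -0.36, the TTK call lost without CS2 replicate 1, DMSO replicate 2 or DMSO replicate 3) and not called with FB23-2 (-0.12 and -0.05), BUB3 was lower with FB23-2 (-0.34) and not called with CS2 (0.08), and MAD2L1 was called with neither (0.14 and 0.00).

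The checkpoint restrains CDC20, the activator of the APC/C, whose partner enzyme UBE2C builds the ubiquitin chains and whose substrate PTTG1 (securin) holds sister chromatids together. All 3 were lower with FB23-2, where 26.7% of all genes were, with log2 fold changes of -0.86, -0.81 and -0.52. With CS2 CDC20 was lower (-0.45), and UBE2C and PTTG1 were not called (-0.05 and 0.01). UBE2C was at 98.0, 105 and 91.7 CPM with CS2, at 62.5, 51.0 and 60.9 CPM with FB23-2, and at 104, 97.3 and 104 CPM with DMSO, so that CS2 overlapped DMSO and FB23-2 did not.

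Of 7 centromere and kinetochore genes, 3 were lower and 2 higher with CS2, and 3 were lower with FB23-2. Counts of so few genes are not read against the 25.3% and 24.3% of all genes lower and higher with CS2. The same holds for the 26.7% lower with FB23-2. CENPE, the kinesin that moves chromosomes to the spindle equator, was at 61.7, 66.8 and 65.0 CPM with CS2, at 70.5, 79.3 and 64.5 CPM with FB23-2, and at 88.0, 124 and 115 CPM with DMSO. Both treated groups were below the lowest DMSO library (log2 fold changes -0.76 ± 0.11 and -0.61 ± 0.11). CENPA, the histone H3 variant that marks centromeres, also fell with both (-0.48 and -0.81). HJURP, its chaperone, was instead at 90.0 to 104 CPM with CS2, 67.4 to 74.7 with FB23-2 and 76.5 to 80.0 with DMSO, a log2 fold change of 0.28 with CS2 (edgeR adjusted p = 0.00743, lost without CS2 replicate 2) and -0.16 with FB23-2 (adjusted p = 0.117).

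The NDC80 complex grips microtubules, and its subunits were called in different directions with CS2. NDC80 was at 168, 199 and 191 CPM with CS2, at 132, 146 and 137 CPM with FB23-2, and at 146, 159 and 161 CPM with DMSO, and was higher with CS2 (log2 fold change 0.26 ± 0.079, edgeR adjusted p = 0.0104). Its dimer partner NUF2 was at 94.3, 115 and 116 CPM with CS2, at 126, 141 and 120 CPM with FB23-2, and at 123, 146 and 143 CPM with DMSO, and was lower with CS2 (-0.34 ± 0.093, adjusted p = 0.00491). The NDC80 call was lost without CS2 replicate 2 and without DMSO replicate 1 (adjusted p up to 0.0671). SPC25 was not called with either compound (-0.13 and -0.01). The large kinetochore protein CENPF was lower with FB23-2 (-0.41) and not called with CS2 (-0.13).

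With CS2 the chromosomal passenger complex had no member lower and 2 of 4 higher, against 25.3% and 24.3% of all genes. This complex corrects faulty attachments and directs cytokinesis. BIRC5 (survivin), its targeting subunit, was at 244, 241 and 229 CPM with CS2, at 116, 95.9 and 120 CPM with FB23-2, and at 219, 204 and 193 CPM with DMSO. It was higher with CS2 by 0.21 ± 0.084 on the log2 scale (edgeR adjusted p = 0.0402, a call lost under 6 alternatives) and lower with FB23-2, at -0.89 ± 0.085 (adjusted p = 4.15e-08). AURKB (ENSG00000178999, chr17:8204733-8210600, minus strand), its kinase, was at 78.5, 74.5 and 66.2 CPM with CS2, at 58.6, 54.1 and 56.1 CPM with FB23-2, and at 62.1, 58.6 and 60.8 CPM with DMSO. AURKB was higher with CS2 (0.27 ± 0.084, edgeR adjusted p = 0.0106) and not called with FB23-2 (-0.10 ± 0.084, adjusted p = 0.307). The CS2 call of AURKB was lost under 3 alternatives: correction for GC content and span, without CS2 replicate 1 and without DMSO replicate 2. The scaffold INCENP and borealin (CDCA8) were lower with FB23-2 (-0.31, lost with correction for GC content and span, and -0.64) and not called with CS2 (0.15 and -0.13).

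Among the 7 mitotic kinesins, 5 were lower and 1 higher with CS2, against 25.3% and 24.3% of all genes. With FB23-2, 6 were lower, against 26.7%. KIF20A (ENSG00000112984, chr5:138178719-138187715, plus strand), which carries the passenger complex to the midzone, was at 187, 199 and 172 CPM with CS2, at 88.2, 91.6 and 82.6 CPM with FB23-2, and at 225, 233 and 237 CPM with DMSO. The groups did not overlap, and the log2 fold changes were -0.32 ± 0.075 and -1.40 ± 0.076 (edgeR adjusted p = 0.00161 with CS2 and 1.6e-11 with FB23-2). KIF4A, a chromosome-bound kinesin, was at 102, 110 and 113 CPM with CS2, at 69.5, 77.4 and 73.4 CPM with FB23-2, and at 155, 162 and 160 CPM with DMSO (-0.56 and -1.12). Of its transcripts' 50-base windows 14.3% also occur in KIF4B, so some of its reads may be shared.

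KIF2C (ENSG00000142945, chr1:44739818-44767767, plus strand), the kinesin that depolymerises microtubules at centromeres, went against the other kinesins with CS2. It was at 127, 125 and 118 CPM with CS2, at 71.2, 65.0 and 73.9 CPM with FB23-2, and at 93.2, 86.9 and 89.6 CPM with DMSO, 3 groups with no overlap. Its log2 fold changes were 0.45 ± 0.077 with CS2 and -0.36 ± 0.077 with FB23-2 (edgeR adjusted p = 6.28e-05 and 0.000638). KIF14, a kinesin of cytokinesis, fell with both compounds (-0.60 and -0.59) under every alternative. KIF11, which pushes spindle poles apart, was lower with CS2 (-0.24, lost without CS2 replicate 1, DMSO replicate 2 or DMSO replicate 3) and with FB23-2 (-0.37). KIF18A was also called lower (-0.34 and -0.36), but its libraries overlapped those of DMSO and each call was lost under 4 alternatives, among them without DMSO replicate 2 or 3. KIF23 was called with neither (0.02 and -0.04).

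Of 6 spindle and centrosome genes, 3 were lower and 1 higher with CS2, against 25.3% and 24.3% of all genes. With FB23-2, 4 were lower, against 26.7%. ASPM, a spindle pole protein known from microcephaly, was at 232, 255 and 238 CPM with CS2, at 347, 418 and 333 CPM with FB23-2, and at 331, 435 and 410 CPM with DMSO. All CS2 libraries were below the other groups, which overlapped each other; the log2 fold changes were -0.70 ± 0.098 (edgeR adjusted p = 7.13e-06) and -0.10 ± 0.097 (adjusted p = 0.411). DLGAP5, which stabilises kinetochore fibres, was at 113, 135 and 125 CPM with CS2, at 143, 169 and 140 CPM with FB23-2, and at 186, 217 and 207 CPM with DMSO (-0.71 and -0.43).

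NEK2, the kinase that splits centrosomes, was at 137, 160 and 136 CPM with CS2, at 93.3, 105 and 97.1 CPM with FB23-2, and at 117, 126 and 126 CPM with DMSO (0.23 and -0.31, edgeR adjusted p = 0.0218 and 0.00313). It completes the set of members called in opposite directions, but its CS2 call was lost with correction for GC content and span, without CS2 replicate 2 and without DMSO replicate 1. TPX2, which activates AURKA on the spindle, was lower with FB23-2 (-0.52) and not called with CS2 (-0.16), and HMMR was lower with both (-0.46 and -0.68). CKAP2 was called with neither (0.15 and -0.15).

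Of 4 genes of the midzone and cytokinesis, 2 were lower with CS2 and 1 with FB23-2, against 25.3% and 26.7% of all genes. ECT2, the exchange factor that starts furrow ingression, was lower with both compounds (-0.43 and -0.55), and anillin (ANLN) was lower with CS2 (-0.36) and not called with FB23-2 (-0.01). CEP55 was not called (0.10 and 0.01). PRC1, which bundles midzone microtubules, had only 1.40 to 2.36 CPM in any library, and 58.4% of its exon bases overlap another annotated gene on the same strand, ENSG00000284946, which had 8.84 to 15.2 CPM. Reads of the pair cannot be told apart from the counts, so the level and change of PRC1 are uncertain.

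The last members are TOP2A (ENSG00000131747, chr17:40388516-40417950, minus strand), the topoisomerase that untangles sister chromatids, and MKI67 (ENSG00000148773, chr10:128096659-128126385, minus strand), the Ki-67 antigen. TOP2A was at 1054, 1229 and 1127 CPM with CS2, at 810, 858 and 824 CPM with FB23-2, and at 782, 893 and 842 CPM with DMSO. It was higher with CS2 (log2 fold change 0.44 ± 0.075, edgeR adjusted p = 7.05e-05) with no overlap, and its FB23-2 libraries lay inside the DMSO range (-0.01 ± 0.075, adjusted p = 0.886). MKI67 was at 599, 608 and 506 CPM with CS2, at 460, 568 and 495 CPM with FB23-2, and at 676, 762 and 793 CPM with DMSO. Both treated groups were below DMSO and overlapped each other (-0.38 ± 0.09 and -0.55 ± 0.09, edgeR adjusted p = 0.00157 and 3.96e-05). The common proliferation markers TOP2A and MKI67 therefore differed in direction with CS2.

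**Figure D3:**
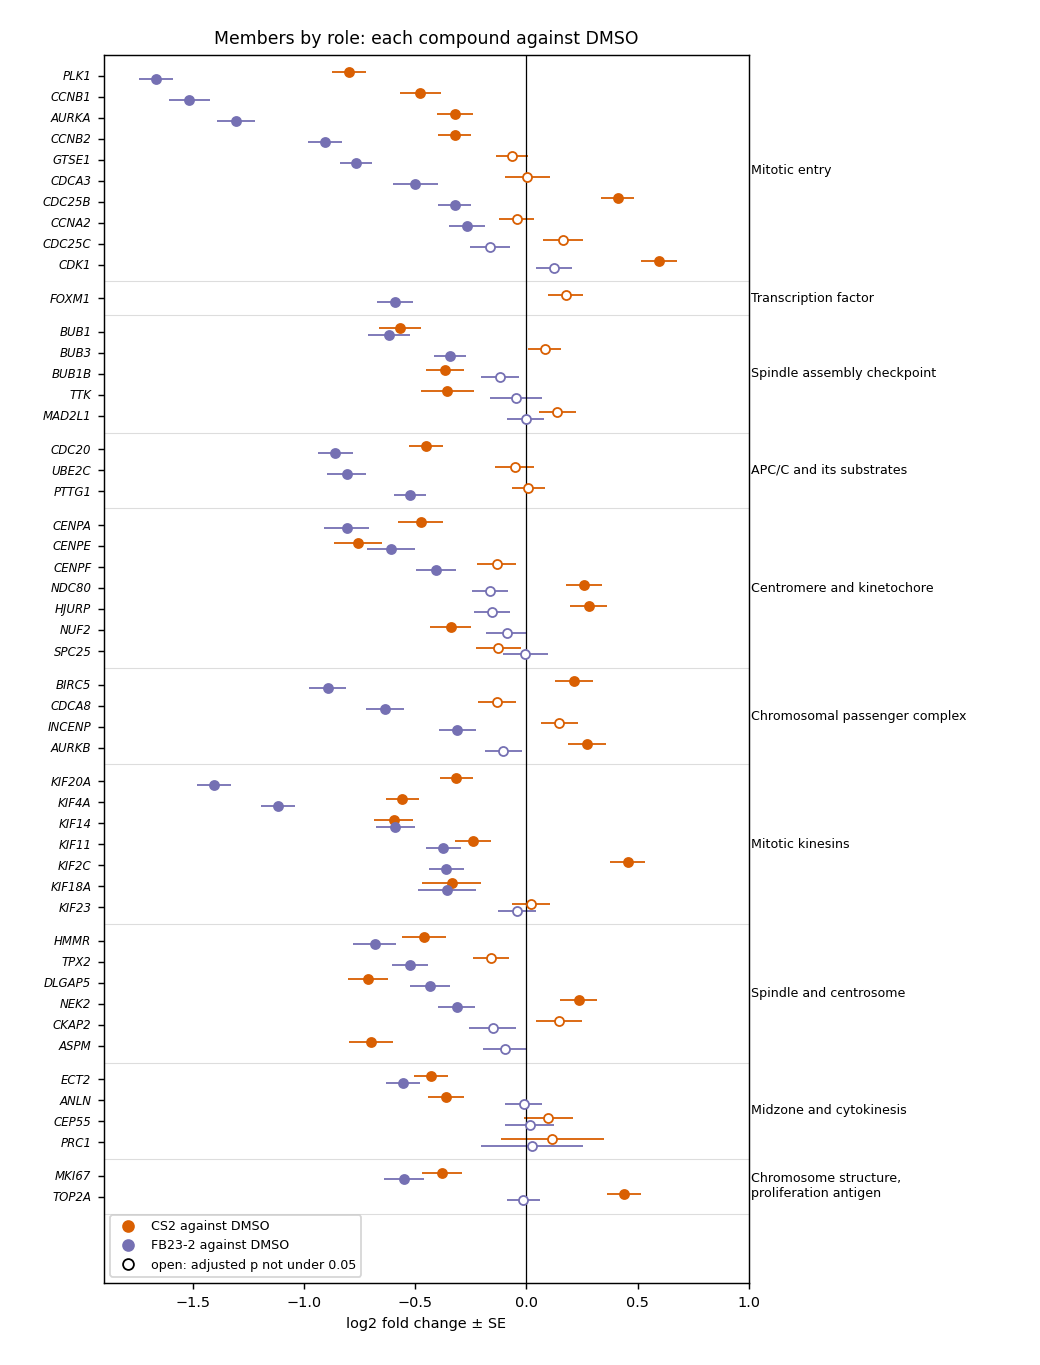
log2 fold change ± SE of each of the 49 members with CS2 (orange) and with FB23-2 (purple) against DMSO, grouped by role; open points did not pass an adjusted p of 0.05. FB23-2 points lie left of 0 for 46 members, from PLK1 at -1.67, whereas CS2 points run from -0.80 (PLK1) to 0.60 (CDK1).

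Set directly against CS2, FB23-2 gave lower levels for 30 members (61.2%), where 30% of all genes were lower, and higher levels for 6 (12.2%), where 29.7% were higher. The median was -0.36, with a range from -1.11 to 0.60. Libraries did not overlap for 28 members that were lower, against 31.6% of all genes, and for 4 that were higher, against 31.3%. All 10 entry genes, all 4 passenger complex genes and all 3 APC/C genes were lower, but the calls of AURKB, INCENP and CDC20 were lost with correction for GC content and span (adjusted p = 0.171, 0.241 and 0.223). The call of CCNA2, whose libraries overlapped, was lost without CS2 replicate 2 or 3 and without FB23-2 replicate 1 or 3. BIRC5 differed most, at 116, 95.9 and 120 CPM with FB23-2 and 244, 241 and 229 CPM with CS2 (log2 fold change -1.11 ± 0.085, edgeR adjusted p = 1.37e-09). KIF20A (-1.09), CCNB1 (-1.04), AURKA (-0.98), PLK1 (-0.87) and KIF2C (-0.81) followed, and none of their groups overlapped.

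The 6 that were higher with FB23-2 than with CS2 were ASPM (0.60), ANLN (0.35), TTK (0.31), DLGAP5 (0.28), NUF2 (0.25) and BUB1B (0.25). ASPM had an edgeR adjusted p of 2.7e-05 and ANLN of 0.00122, and both were called under all 15 alternatives; the calls of TTK, NUF2 and BUB1B were each lost under 3 and that of DLGAP5 under 2, and NUF2 changed sign once, with correction for GC content and span (adjusted p = 0.753). Without CS2 replicate 1 the count was 2, and without FB23-2 replicate 2 it was 3. The 4 members called in opposite directions against DMSO were all lower with FB23-2 than with CS2. That direction follows from their opposite signs in the same fit and is no further result. AURKB (-0.38), CDK1 (-0.47), HJURP (-0.43), NDC80 (-0.42) and TOP2A (-0.45) were also lower with FB23-2 than with CS2. FOXM1 differed by -0.77 (adjusted p = 1.07e-07), while MKI67 (-0.17, adjusted p = 0.109) and BUB1 (-0.05, adjusted p = 0.676) did not pass.

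Transcript levels per length, in TPM (counts per length of annotated exons, scaled to library size), spanned a wide range in DMSO cells. TPX2 was highest, at 637 ± 21.9 TPM (SD, n = 3), then CCNB1 at 574 ± 8.24, TOP2A at 494 ± 40.4, PTTG1 at 381 ± 13.5 and CDC25B at 347 ± 7.18 TPM. Cyclin B1 was thus well above its kinase CDK1, at 151 ± 5.61 TPM. PLK1 (164 ± 6.71 TPM) and NDC80 (164 ± 11.5 TPM) did not differ beyond their spread. At the low end stood KIF23 (47.6 ± 5.03 TPM), CENPE (43.8 ± 8.24), CDC25C (39.4 ± 1.40), CDCA3 (31.1 ± 0.706) and PRC1 (1.23 ± 0.267). Of these, CENPE did not differ from KIF23 or CDC25C beyond its spread. With CS2 TOP2A ranked first among the members at 627 ± 36.4 TPM and CCNB1 had 387 ± 16.8 TPM. With FB23-2 CCNB1 had 194 ± 46.4 TPM and CDK1 157 ± 9.20 TPM, values within 1 SD of CCNB1.

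The members' median span was 29592 bases, from 4249 (CDC20) to 130743 (KIF4A), against 33467 for the 14037 tested protein-coding genes, and their transcripts had a median GC content of 43.2%, against 48.6%. Across the 49 members, longer genes were lower with CS2 (Spearman rho -0.41 between span and log2 fold change, -0.30 over all protein-coding genes tested). With GC content the CS2 rho was 0.27, against 0.17 over protein-coding genes. For FB23-2 against DMSO the rho was 0.20 with span and -0.36 with GC content, against 0.07 and -0.24 over protein-coding genes. For FB23-2 against CS2 the rho was 0.66 with span and -0.64 with GC content, against 0.31 and -0.35 over protein-coding genes. These correlations are across genes that share the same libraries, and genes are not independent replicates. Of all 10933 protein-coding genes in the members' range of spans, 21% were lower with CS2, 27.7% with FB23-2 and 35.2% with FB23-2 against CS2. With each library corrected for GC content and span, 24 members were lower and 6 higher with CS2, 41 were lower and 0 higher with FB23-2, and 34 were lower and 2 higher with FB23-2 against CS2.

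**Figure D4:**
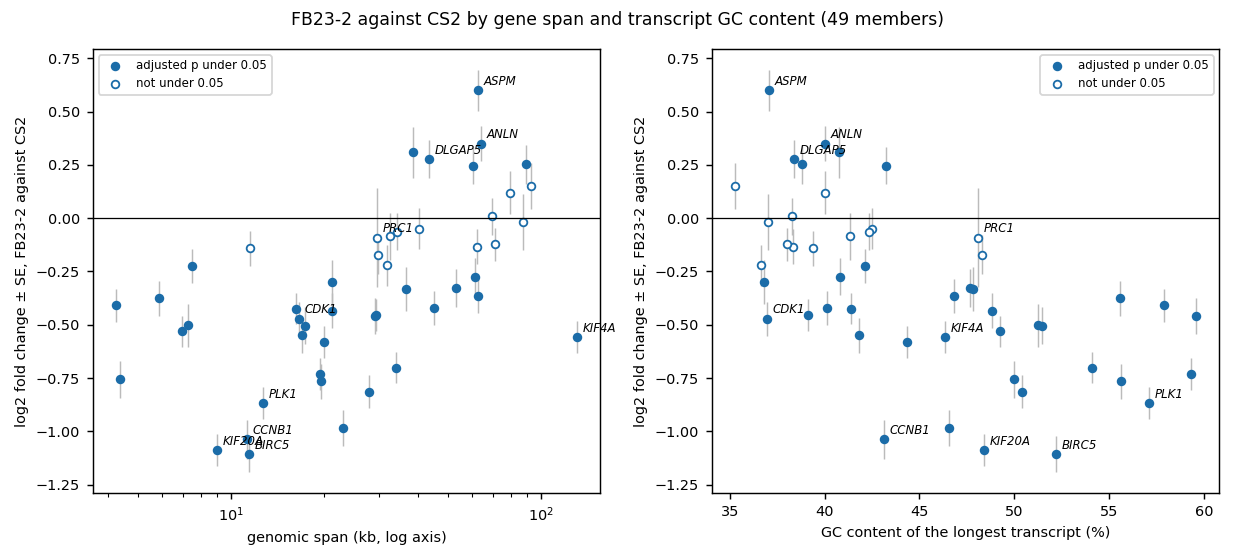
log2 fold change ± SE of FB23-2 against CS2 for the 49 members, plotted against genomic span (kb, log axis, left) and GC content of the longest transcript (%, right); filled points passed an adjusted p of 0.05. The short genes KIF20A, BIRC5 and CCNB1 lie near -1.1 to -1.0 and the longer ASPM and ANLN above 0, with KIF4A, the longest, at -0.56.

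By promoter letters, the 33 members with a CHR match had a median log2 fold change of -0.36 with FB23-2, 19 of them lower, and the 9 without a match had a median of -0.36, 7 of them lower. With CS2 the medians were -0.24 with a match (17 lower, 5 higher) and 0.01 without (3 lower, 3 higher). Of all tested genes, 26.7% were lower with FB23-2, and 25.3% were lower and 24.3% higher with CS2. Counts among the 9 without a match are too few to read against these shares. These are descriptions of letters in a window, and the difference between members with and without a match was not tested.

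Mitosis genes outside the 49 were counted in 6 further lists. Of 122 tested, 26 (21.3%) were lower and 41 (33.6%) higher with CS2 (median log2 fold change 0.06), against 25.3% and 24.3% of all genes. With FB23-2, 39 (32%) were lower and 28 (23%) higher (median -0.02), against 26.7% and 25.4%, and their difference from the 49 was not tested. With FB23-2 the list nearest to the members was other spindle, kinesin and cytokinesis genes, 11 lower and 1 higher of 20 (median -0.25). Lower there were NDE1 (-0.78), a dynein regulator, and KNSTRN (-0.73), a kinetochore fibre protein, and the 1 higher was CLASP2 (0.80), which steadies microtubule ends. With CS2 this list had 5 lower and 6 higher, among them NDE1 (-0.99), KIF20B (-0.90), the microtubule destabiliser STMN1 (0.79) and TACC3 (0.66).

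Among 30 other kinetochore and centromere genes, 4 (13.3%) were lower and 10 (33.3%) higher with CS2, against 25.3% and 24.3% of all genes. With FB23-2, 6 (20%) were lower and 12 (40%) higher, against 26.7% and 25.4%. SKA2, of the SKA complex that tracks microtubule ends, had the largest change: it was at 24.6, 25.1 and 31.4 CPM with CS2, at 126, 163 and 150 CPM with FB23-2, and at 145, 165 and 148 CPM with DMSO (log2 fold change -2.50 ± 0.11 with CS2, edgeR adjusted p = 1.5e-12). CENPP was also lower with CS2 (-1.03), with 42.7% of its exon bases overlapped by other genes. DSN1 (1.09) and SPC24 (1.06), the partner of SPC25, were higher with CS2. With FB23-2 CENPW (-0.82) was lower, MAD1L1 was lower at under 1 CPM in every library (-1.18), and CENPH (0.97) and CENPQ (0.90) were higher.

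Condensin and cohesin genes, which shape and hold chromatids, numbered 9 lower and 4 higher of 19 with CS2 and 6 lower and 2 higher with FB23-2. The shares of all genes were 25.3% lower and 24.3% higher with CS2, and 26.7% and 25.4% with FB23-2. The condensin ATPase SMC4 was at 33.1, 38.9 and 38.6 CPM with CS2, at 148, 208 and 145 CPM with FB23-2, and at 167, 198 and 189 CPM with DMSO (log2 fold change -2.32 ± 0.12 with CS2, edgeR adjusted p = 1.44e-10), and 25.6% of its exon bases overlap TRIM59. Its partner SMC2 was lower with both compounds (-1.09 and -0.62), as was the cohesin subunit STAG1 (-0.96 and -1.12). Other genes overlap 21.2% of the exon bases of STAG1. NCAPH2 (0.77) and CDCA5 (0.75) were higher with CS2, and SMC3 (0.29) and NCAPG2 (0.17) with FB23-2.

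For the APC/C and its enzymes, 4 were lower and 7 higher of 19 with CS2, and 7 were lower and 2 higher with FB23-2. Beside these counts, 25.3% of all genes were lower and 24.3% higher with CS2, and 26.7% and 25.4% with FB23-2. ANAPC15 was lower with both (-1.24 and -1.42, at 3.22 CPM on average with FB23-2 and with 27.1% of its exon bases overlapped by another gene). CDC27 was lower with CS2 (-0.62), where UBE2D1 (0.66) and ANAPC4 (0.51) were higher. UBE2S, which extends the chains that UBE2C starts, was lower with FB23-2 (-0.86), and ANAPC16 (0.56) and CDC16 (0.21) were higher. Of 19 other entry and exit regulators, 4 (21.1%) were lower and 7 (36.8%) higher with CS2, beside the same shares of all genes. With FB23-2, 8 (42.1%) were lower and 6 (31.6%) higher. MASTL (Greatwall), the kinase that restrains PP2A in mitosis, was higher with both compounds (1.22 and 1.20), at 52.5, 61.4 and 55.7 CPM with CS2, 47.5, 68.1 and 51.0 CPM with FB23-2 and 23.7, 25.2 and 24.0 CPM with DMSO. CDC25A was higher with CS2 (0.66), and CDKN3 (-0.48) and BORA (-0.45) were lower with it. Other genes overlap 37.0% of the exon bases of BORA. With FB23-2 FAM83D (-1.14) and CCNF (-0.94) were lower and VRK1 (0.59) higher.

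The 15 genes listed as DREAM, MuvB, B-MYB and E2F regulators, CDKN1A among them, had 0 lower and 7 (46.7%) higher with CS2. With CS2 0 were lower at an unadjusted p under 0.05 in edgeR. With FB23-2, 1 (6.67%) was lower and 5 (33.3%) higher. Of all genes, 25.3% were lower and 24.3% higher with CS2, and 26.7% and 25.4% with FB23-2. LIN9 (0.73), a MuvB subunit, and the repressor E2F8 (0.61) led with CS2. With FB23-2 LIN52 (0.60) and the pocket protein RBL1 (0.58) were higher and TFDP1 (-0.23) was lower. Replication genes of the earlier G1/S wave, 37 in all, were 3 (8.11%) lower and 27 (73%) higher with CS2 (median 0.46). With FB23-2, 11 (29.7%) were lower and 14 (37.8%) higher (median -0.03). GINS4 (1.09) was among the higher with CS2, where GINS3 (-0.44) and RFC3 (-0.40) were lower. With FB23-2 CCNE1 (-1.22) and UHRF1 (-0.85) fell while GINS4 (0.67) and CDT1 (0.50) were higher. Other genes overlap 23.6% of the exon bases of GINS4. With CS2 the median of the replication list thus lay above 0 and that of the 49 mitosis genes below it.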

How the data were processed

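RNA was isolated with TRIzol and made into mRNA libraries, per the labels. For 9 of the 15 labelled samples, those of H69, the authors deposited raw counts of reads as whole numbers, which were used as they are. Per the submitters' processing notes the genome was hg38. The sources used here name no aligner, counter, annotation or strand setting, so reads of overlapping genes and copies may be mixed. The members and all lists were chosen with earlier results of these data known.

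Tests used edgeR 4.0.16 in R 4.3.3. The filter was filterByExpr (minimum count 10, total 15), which left 19781 genes, and libraries were scaled by TMM. A single quasi-likelihood fit of all 9 libraries (robust, no covariate, biological coefficient of variation 0.101) gave the 3 contrasts, with Benjamini-Hochberg adjustment over all tested genes and calls at 0.05. The SE is the log2 fold change divided by the square root of F. Each p-value rests on the spread among a group's libraries, for which the series' word for replicates is the only source. No pair of libraries within a group agreed within sampling noise (lowest chi-square over degrees of freedom 4.21). Symbols were found for 42343 IDs. GENCODE 29 (58261 of the IDs) gave coordinates, exon lengths, overlaps and GC content, and RefSeq gave promoters, read in Python 3.11.15. Named members are 8 fixed ones, the 6 largest called changes of each comparison without overlap, and all called higher or in opposite directions. From each further list the 2 largest called changes in each direction are named, of which 1 is not reported here. Other members were named after their values were seen. Alternatives were scaling by RLE factors or by library size only, no filter or one at a mean of 1 CPM, DESeq2 1.42.0, the compared groups alone, a replicate block, correction for GC content and span (splines of 4 degrees of freedom, 18912 genes), no mitochondrial genes, and each library left out. The tests were checked on 5 draws of simulated counts over all genes, with 18942 tested on average. Changed genes were few, with 321 of 1.5-fold for CS2 over the 5 draws. In the data 5014 genes were called lower and 4815 higher with CS2. Adjusted p-values depend on the share of changed genes, so the rates that follow are not the sensitivity of the tests above. Of 1.5-fold changes, 52.6% were recovered for CS2 and 56.8% for FB23-2, and of 4-fold changes 94.5% and 94.1%. Of the calls, 5.76% with CS2 and 6.58% with FB23-2 were of unchanged genes. Recovery at the members' own levels was not computed.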

Additional observations from a re-analysis of the deposited data

How the results depend on the processing

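Under 15 alternatives per comparison (DESeq2 included), the count of members lower stayed from 19 to 24 with CS2 (22 in the text), from 30 to 41 with FB23-2 (32) and from 27 to 34 with FB23-2 against CS2 (30), and 0 members were called higher with FB23-2 under each. With each library left out in turn, 5 to 11 members were higher with CS2 (9 in the text; 5 without CS2 replicate 2), and 2 to 6 with FB23-2 against CS2 (6 in the text; 2 without CS2 replicate 1, 3 without FB23-2 replicate 2). In the same runs the members' median with FB23-2 ran from -0.46 (without FB23-2 replicate 2; -0.45 without DMSO replicate 1) to -0.35. Correction for GC content and span gave a median of -0.49 with FB23-2, 2 members higher with FB23-2 against CS2, and turned CENPE and KIF14 in that comparison to -0.24 and -0.24; NUF2, called there as fitted, also changed sign and lost its call (adjusted p = 0.753, edgeR). The cause was not tested. Among single named genes, 914 values stayed called in the same direction or stayed not called, 18 calls were lost, 11 were gained and 2 turned. Changes of sign among values that stayed not called were not counted. Calls under every alternative numbered 19 of 22 lower and 4 of 9 higher with CS2 (CDK1, CDC25B, KIF2C and TOP2A), 29 of 32 lower with FB23-2, and 23 of 30 lower and 2 of 6 higher with FB23-2 against CS2. FOXM1 with CS2 passed under 3 alternatives (library size alone, the compared groups alone, and without CS2 replicate 3). Deviations of same-numbered libraries correlated from -0.03 to 0.021 between either compound and DMSO. Between CS2 and FB23-2 they correlated at 0.167, 0.123 and 0.049, and different-numbered ones from -0.138 to 0.02. CS2 and FB23-2 libraries thus each correlated best with their own number. Whether the numbers pair those samples was not tested. A replicate block gave 22 lower and 9 higher with CS2, 33 lower and 0 higher with FB23-2, and 31 lower and 6 higher with FB23-2 against CS2. Depth limits PRC1 most, at 1.40 to 2.36 CPM.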

Other observations

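CCNF, the F-box cyclin whose ubiquitin ligase targets several mitotic regulators, was higher with CS2 and lower with FB23-2, like BIRC5, CDC25B, KIF2C and NEK2 among the members. It was at 154, 141 and 129 CPM with CS2, at 59.1, 47.9 and 50.9 CPM with FB23-2, and at 110, 97.5 and 96.2 CPM with DMSO. The groups did not overlap, and the log2 fold changes were 0.48 ± 0.091 with CS2 and -0.94 ± 0.093 with FB23-2 (edgeR adjusted p = 0.000199 and 6.66e-08), with -1.43 for FB23-2 against CS2. TACC3, a spindle protein that AURKA recruits, had the same signs (0.66 and -0.33, edgeR adjusted p = 3.85e-07 and 0.001). MYBL2, which encodes B-MYB and was picked after its values were seen, was at 278, 261 and 256 CPM with CS2, at 174, 182 and 190 CPM with FB23-2, and at 198, 178 and 186 CPM with DMSO. It was higher with CS2 (0.50 ± 0.073, edgeR adjusted p = 1.04e-05) and not called with FB23-2 (-0.04 ± 0.073, adjusted p = 0.666), where FOXM1 was lower.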
